A study of Mus musculus with 6 samples.

Results

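The ERBB receptors (Egfr, Erbb2, Erbb3 and Erbb4) and 6 of their EGF-like ligands (Egf, Hbegf, Areg, Ereg, Tgfa and Btc) were followed across 6 lines of mpkCCD cells, an immortalised mouse line of the cortical collecting duct of the kidney. The 10 genes were chosen by family membership. Of these, 9 had a probe set named to them alone, with 20 probe sets between them among the 45037 of the array, and each gene was represented by its probe set of highest mean signal. Areg, which encodes the ligand amphiregulin, had no such probe set and was not analysed here. Of the 9 genes, 7 had a mean signal above the filter of 85.5 units and were tested, among 10342 genes tested in all. Egf and Erbb4 lay below that filter.

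The lines were the original mpkCCD cells and clones 2, 3, 9, 10 and 11, per the series' design text grown from mpkCCDc14 cells. The labels describe clone 2 as not expressing the water channel aquaporin 2 (AQP2, gene Aqp2) and the other 5 lines as expressing it. All 6 received dDAVP, an analog of vasopressin, at 0.1 nM over 5 days, so no line without dDAVP was measured. Each line was 1 array of total RNA, and each clone is a single clone, so the spread behind each p-value is that between lines and cannot separate line from culture or array. The study looked for transcripts that follow Aqp2 among the clones.

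ERBB receptors are tyrosine kinases that pair on binding a ligand and signal through the RAS to ERK and PI3K to AKT cascades. ERBB2 has no known ligand of its own, and ERBB3 has little kinase activity and works mainly in pairs with ERBB2. The ligands are made as membrane proteins and released by ADAM proteases. EGF, TGF-alpha and amphiregulin bind the EGF receptor, while HB-EGF, betacellulin and epiregulin bind ERBB4 as well. In the kidney Egf is made chiefly by the thick ascending limb and distal convoluted tubule, and EGF is known to blunt the water response of the collecting duct to vasopressin.

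The Aqp2 signal was lowest in the clone labelled as lacking AQP2, at 159 in clone 2, and between 1066 and 6578 in the other lines. The epithelial keratins Krt8 and Krt18 had signals of at least 19227 in every line. None of 7 fibroblast genes passed the signal filter, and 1 of 6 genes each did among those of the thick ascending limb and distal convoluted tubule, and of the proximal tubule (Lrp2, lower in clone 2), as did 1 of 5 intercalated cell genes and 1 of 7 of endothelium and leukocytes. Of 10 principal cell genes past the filter 3 were lower in clone 2 (Aqp2, Fxyd4 and Gata3) and 7 did not pass the test. Over all genes tested 3.14% passed it. Among those 7, Aqp3 was highest in clone 2, at 192 against 117 ± 21.5 (SD, n = 5; log2 difference 0.64, limma adjusted p = 0.281). Avpr2 had a difference of 0.12, while those of Scnn1a, Scnn1b, Scnn1g, Hsd11b2 and Tfcp2l1 were negative. The labels group the lines by AQP2, so the call of Aqp2 adds nothing to them. The summed signal over the 12 listed was 12451 in clone 2 against 21491 to 28505 in the other lines. Aqp2 is part of that sum, with 159 in clone 2 and 1066 to 6578 in the others. The median signal of an array was lowest in clone 2, at 79.6 against 84.3 to 88.6. With median centring and with quantile normalization the count of members called stayed at 1, Ereg. Its log2 difference was 1.34 and 1.28 there, against 1.25 in the main fit. The part of the marker differences in the results was not tested. In bulk RNA fewer cells of a type and less RNA per cell cannot be told apart.

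None of the 3 receptors that were tested, Egfr, Erbb2 and Erbb3, passed the test in clone 2. Erbb3, the receptor that pairs with ERBB2, had a signal of 5053 in clone 2, 5769.8, 5091, 6092 and 5354 in clones 3, 9, 10 and 11, and 4866 in the original cells. Clone 2 lay inside the range of the others, and the highest line was 1.25 times the lowest. Clone 2 differed from the mean of the expressing lines by -0.10 on the log2 scale (SE 0.145, 95% interval -0.43 to 0.23, limma adjusted p = 0.741). Erbb2, the receptor without a ligand, stood at 1979 in clone 2, 2032, 1570.2, 1881 and 2226 in clones 3, 9, 10 and 11, and 1724 in the original cells. Here too clone 2 lay within the others, with a log2 difference of 0.08 (SE 0.193, 95% interval -0.36 to 0.51, limma adjusted p = 0.857).

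Egfr, the receptor of EGF and TGF-alpha, had its lowest signal in clone 2 by its brightest probe set. It was 987 in clone 2, 1254, 1345, 1276 and 1176 in clones 3, 9, 10 and 11, and 1311 in the original cells. Clone 2 did not overlap the others, whose mean was 1272 ± 64.2 (SD, n = 5). The log2 difference of -0.36 (SE 0.150, 95% interval -0.70 to -0.02) had an unadjusted p of 0.0403 and a limma adjusted p of 0.226, so it did not pass the test. Egfr had 7 probe sets, 4 of them past the filter. In the other 3 of those 4 clone 2 lay inside the range of the expressing lines, with log2 differences of -0.05, -0.13 and -0.24 and limma adjusted p-values of 0.887, 0.755 and 0.670. The remaining 3 had signals of at most 122 in any line.

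Erbb4, a receptor of neuregulins and of HB-EGF, was low. Its signal was 7.28 in clone 2, 59.3, 3.03, 3.74 and 2.64 in clones 3, 9, 10 and 11, and 4.12 in the original cells. Clone 3 stood apart from all others, but even there it lay only at the 44.6th percentile of the signals. A fit with no filter gave clone 2 a difference of -0.13 on the log2 scale (SE 0.665, limma adjusted p = 0.960). Whether the transcript was present was not tested, since detection calls were not used here.

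**Figure D1:**
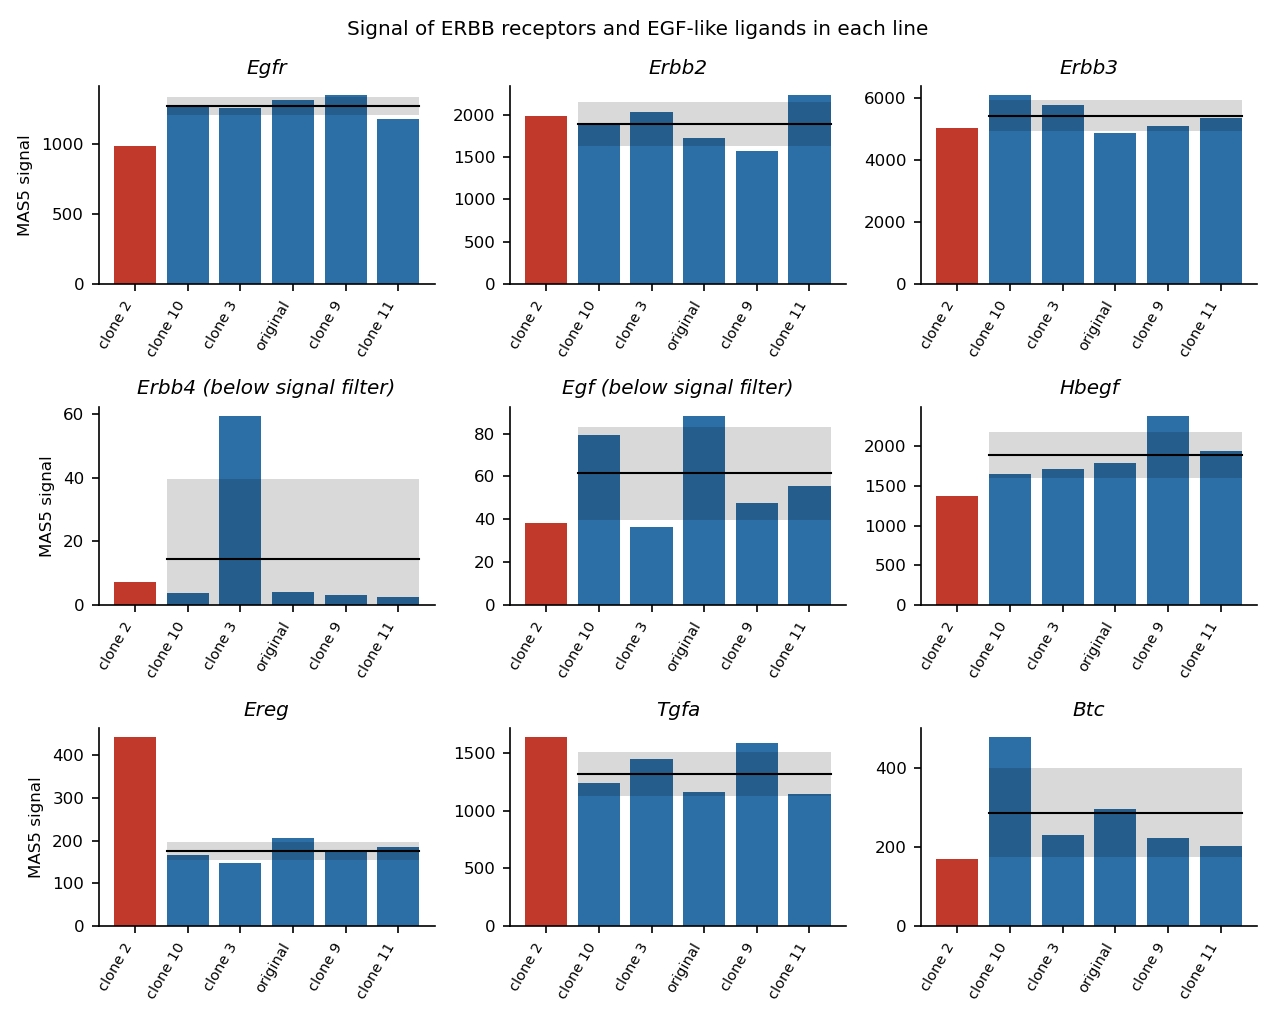
Bars give the MAS5 signal (linear scale from 0, each panel with its own axis) of the representative probe set of each measured gene in the 6 lines, in the order of their Aqp2 signal, with clone 2 in red and the expressing lines in blue; 1 array per line. The line and grey band are the mean and SD of the 5 expressing lines. Ereg is 441 in clone 2 and at most 206 elsewhere, while Btc reaches 478 in clone 10.

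Among the ligands, Ereg, which encodes epiregulin, was higher in clone 2 than in every expressing line, and it was the only member that passed the test. Its signal was 441 in clone 2, 148, 174, 167 and 184 in clones 3, 9, 10 and 11, and 206 in the original cells. The expressing lines lay close together, at 176 ± 21.5 (SD, n = 5), and clone 2 was at 2.51 times their mean. The log2 difference was 1.25 (SE 0.244, 95% interval 0.70 to 1.80, limma adjusted p = 0.0388). The call was lost without clone 3 (adjusted p = 0.0600), clone 10 (0.0635), clone 11 (0.0666) or the original cells (0.0683), was lost when no filter was applied (0.0963), and was kept without clone 9 (0.0346). Over all settings tried in which Ereg was tested the adjusted p lay between 0.0321 and 0.0963 and the difference between 1.17 and 1.34. Ereg had 1 probe set, so no other one could be compared.

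Hbegf, which encodes heparin-binding EGF, was most abundant in clone 9. Its brighter probe set gave 1380.0 in clone 2, 1720.2, 2377, 1646 and 1939.7 in clones 3, 9, 10 and 11, and 1792 in the original cells. Clone 2 was the lowest line there, and the log2 difference of -0.44 (SE 0.200, 95% interval -0.89 to 0.01) did not pass the test (limma adjusted p = 0.262). The second probe set was also highest in clone 9, at 1443, but clone 3 was lowest in it, at 812, and clone 2, at 1033, lay inside the others (log2 difference -0.07, adjusted p = 0.918).

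Tgfa, which encodes TGF-alpha, had 1638 in clone 2, 1448, 1591, 1241 and 1148 in clones 3, 9, 10 and 11, and 1166 in the original cells. Clone 2 was the highest line, only just above clone 9, and the log2 difference was 0.32 (SE 0.202, 95% interval -0.14 to 0.78, limma adjusted p = 0.413). Of 2 further probe sets past the filter, with signals of at most 136 in any line, 1 gave 0.29 (adjusted p = 0.606) and the other -0.24 (adjusted p = 0.799).

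Btc, which encodes betacellulin, had the widest spread of log2 signal among the expressing lines of the 7 members tested, by representative probe sets. It had 169 in clone 2, 231, 224, 478 and 203 in clones 3, 9, 10 and 11, and 298 in the original cells. Clone 10 was the highest line in this probe set and also in the second one, where it had 155 against 56.3 to 116 in the other 5 lines. The expressing lines averaged 287 ± 113 (SD, n = 5), and clone 2 lay below all of them with a log2 difference of -0.64 (SE 0.395, 95% interval -1.53 to 0.26, limma adjusted p = 0.404). In the second probe set clone 2 was inside their range.

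Egf itself was low in all lines, with 38.2 in clone 2, 36.4, 47.6, 79.4 and 55.3 in clones 3, 9, 10 and 11, and 88.0 in the original cells. These signals lay between the 35.8th and the 50.4th percentile of the arrays, and clone 2 was not outside the others. With no filter the log2 difference was -0.45 (SE 0.481, limma adjusted p = 0.782).

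**Figure D2:**
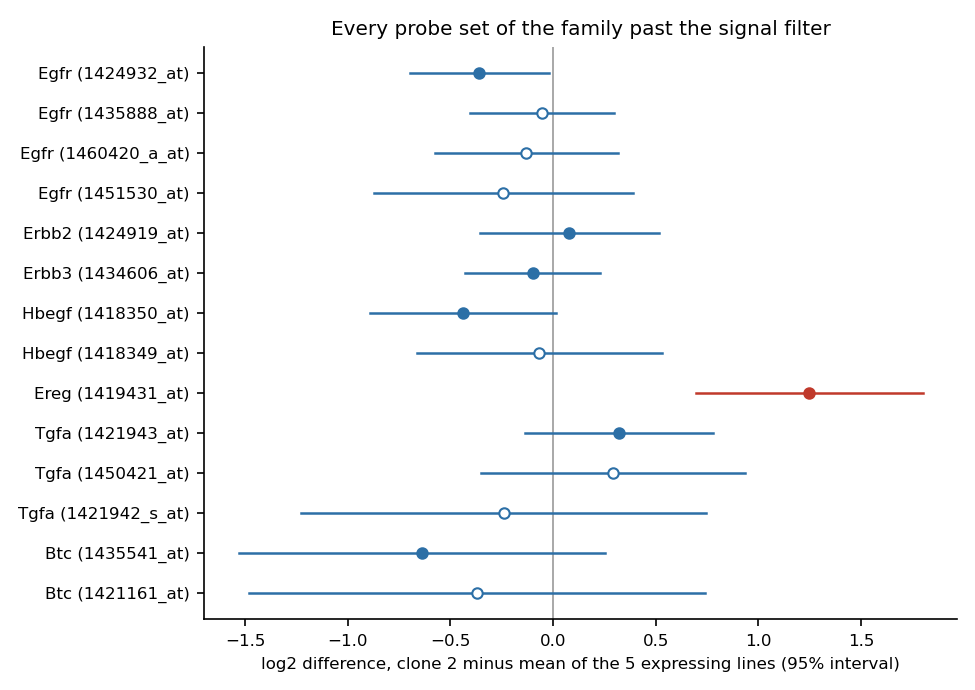
Log2 difference of clone 2 from the mean of the 5 expressing lines, with its 95% interval from limma, for all 14 probe sets of the family past the signal filter; filled points are the representative probe sets, and red marks a limma adjusted p under 0.05. The interval of Ereg runs from 0.70 to 1.80, and it is the only red one.

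Among the 7 members tested, 1 passed the test, Ereg, against 3.14% of all 10342 genes, or 1.29% counting only genes higher in clone 2. At an unadjusted p under 0.05 there were 2 members, Ereg and Egfr, while 22.3% of all genes tested were below that value. Clone 2 lay outside the range of the expressing lines in 5 of the 7, as it did in 55.9% of all genes, so this count is near the background. It was the highest line in Ereg and Tgfa and the lowest in Egfr, Hbegf and Btc. The median log2 difference of the 7 was -0.10, against 0.01 over all genes tested. The original cells lay inside the range of the 4 expressing clones in 5 of the 7. The exceptions were Erbb3, where they were lowest, and Ereg, where they were highest of the expressing lines. The share over all genes was not computed, so this count is not read as a trait of the members.

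The spread among the 5 expressing lines was compared by the representative probe sets. The SD of the log2 signal was 0.07 for Egfr, at the 6.01th percentile of all genes tested, 0.13 for Erbb3, 0.16 for Ereg (40.0th), 0.19 for Erbb2 (54.0th), 0.20 for Tgfa (56.8th), 0.21 for Hbegf (58.1th) and 0.47 for Btc (93.2th). By these representative probe sets Egfr had the smallest SD of the 7 and Btc the largest. The other 3 Egfr probe sets past the filter had SDs of 0.09, 0.15 and 0.26, of which the last 2 exceed that of Erbb3. The further Tgfa probe sets past the filter had 0.10 and 0.42, the second Hbegf probe set 0.31 and the second Btc probe set 0.52. The order of the members thus depends on the probe set taken. Erbb4, below the filter, had an SD of 0.81. The promoters of Egfr and Btc are shown as the ends of the order among the 7, as windows of 250 bases before to 50 bases after the annotated start, from RefSeq on GRCm38.p6, and the capitals mark matches on either strand to the GC box GGGCGG, the TATA box TATAAA or the cAMP response element half-site TGACG. RefSeq windows were found for 7 of the 10 genes, and for Erbb3, Hbegf and Ereg none was listed.
Egfr, chr11:16751953-16752252, plus strand: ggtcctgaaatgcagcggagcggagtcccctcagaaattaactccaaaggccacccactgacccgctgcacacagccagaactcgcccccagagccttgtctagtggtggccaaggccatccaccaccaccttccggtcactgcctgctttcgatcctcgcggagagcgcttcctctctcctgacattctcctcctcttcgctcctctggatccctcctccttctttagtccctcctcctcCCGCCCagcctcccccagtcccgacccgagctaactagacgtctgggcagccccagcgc
Btc, chr5:91402945-91403244, minus strand: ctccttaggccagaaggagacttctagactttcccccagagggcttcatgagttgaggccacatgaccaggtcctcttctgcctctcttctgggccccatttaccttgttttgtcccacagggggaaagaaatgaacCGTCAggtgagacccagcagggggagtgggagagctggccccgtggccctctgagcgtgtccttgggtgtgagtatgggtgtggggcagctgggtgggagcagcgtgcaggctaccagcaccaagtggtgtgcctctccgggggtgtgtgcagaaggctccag
The Egfr window held 1 GC box and no other match, and the Btc window held 1 cAMP half-site and no other match. GC boxes occurred in 35.7% of 32851 windows of that length, TATA boxes in 13.6% and cAMP half-sites in 20.8%. The share of G and C was 62.3% in the Egfr window and 60.3% in that of Btc, against a median of 52.7%. A match is a run of letters only, and no binding was measured.

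Ereg and Btc were next to each other among the tested genes in the order of chromosome 5, by the GRCm38.p6 gene table, so the genes around Ereg were compared as well, a set chosen after the values were seen. Of the 10 nearest tested genes, 5 on each side, 0 passed the test in clone 2 by limma, and their median log2 difference was -0.03. Rassf6, a RAS association domain gene, had the largest positive difference, with 3955 in clone 2 against 2438 ± 507 (SD, n = 5; log2 difference 0.72, adjusted p = 0.184), and Ppbp, a platelet chemokine, had the largest negative one (-0.88, adjusted p = 0.384). Mthfd2l, a mitochondrial folate enzyme and the tested gene next to Ereg on one side, had -0.14, and Btc on the other side had -0.64. The median over all 678 tested genes of chromosome 5 was 0.10. The medians of the other chromosomes that hold a tested member were 0.12 for chromosome 11 (Egfr and Erbb2), -0.24 for chromosome 10 (Erbb3), 0.13 for chromosome 6 (Tgfa) and 0.00 for chromosome 18 (Hbegf).

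**Figure D3:**
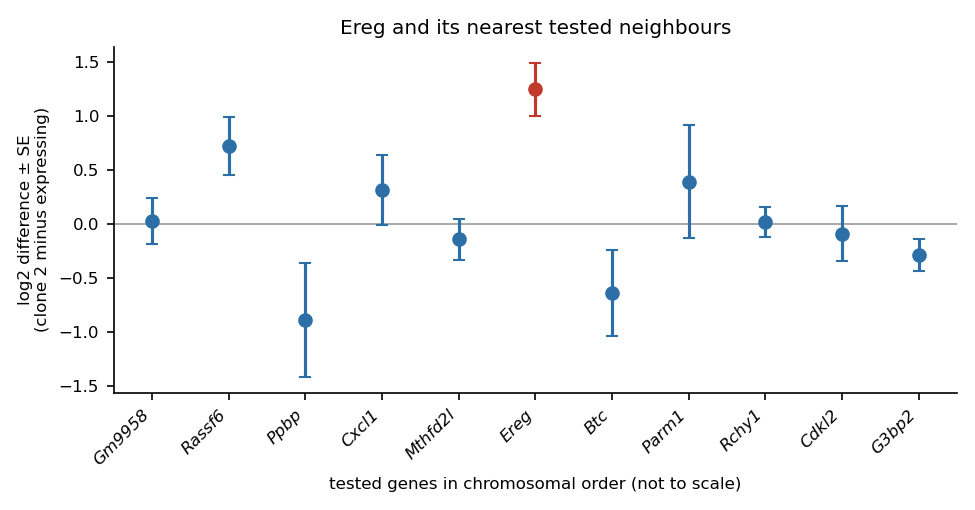
Log2 difference of clone 2 from the mean of the 5 expressing lines, with its SE, for Ereg and the 5 nearest tested genes on each side in gene order (spacing not to scale); red marks a limma adjusted p under 0.05. Ereg, at 1.25, is the only red point, and its neighbours lie between -0.88 and 0.72.

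Ereg also had the widest range of log2 signal over the 6 lines among the members tested. The 3 genes whose log2 signals followed it most closely were Snrnp27, a spliceosome protein (Pearson r = 0.994 over 6 lines), Chrac1, a chromatin remodelling subunit (r = 0.992), and Hps4, a protein of lysosome-related organelles (r = 0.991). With 6 lines and 10341 genes compared, 104 genes had an r above 0.95, and all of these points share the same arrays and the same high clone 2.

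The study's question was which transcripts follow Aqp2 among the lines, and no member did so past the test. In a fit of log2 signal on log2 Aqp2 over the same 6 arrays, 0 of 7 members were called by limma, against 2.22% of 10341 genes, and 2 had an unadjusted p under 0.05. These were Hbegf, with a slope of 0.12 log2 units per log2 unit of Aqp2 (SE 0.0372, adjusted p = 0.134), and Ereg, with -0.21 (adjusted p = 0.174). The share of all genes below that unadjusted value in this fit was not computed, so the count of 2 is not read as a result. In the 5 expressing lines alone the slope of Hbegf was 0.13 (adjusted p = 0.519) and that of Ereg 0.09 (adjusted p = 0.800), the latter of opposite sign to that over 6 lines. The second Hbegf probe set had a slope of 0.03 over the 6 lines (adjusted p = 0.826). The other 5 slopes lay between -0.06 and 0.06, with adjusted p-values from 0.371 to 0.937. This fit uses the same arrays as the comparison of clone 2, so neither supports the other.

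The wider pathway was read from 9 lists by role, with 115 genes listed, 107 with a probe set named to them alone and 99 past the filter. In clone 2 1 of the 99 rose and 0 fell by limma, or 1.01% against 3.14% of all genes tested. At an unadjusted p under 0.05 there were 20, or 20.2% against 22.3% of all genes tested, so this count is near the background. The median log2 difference of 0.05 compares with 0.01 over all genes. The gene that rose was Cd9, a tetraspanin known to associate with the membrane form of HB-EGF. It belonged to the list of co-receptors and ligand docking, with 7 genes, of which the other 6 did not pass. The median difference of that list was 0.11, with single genes from -0.76 to 1.09. The signal of Cd9 was 10531 in clone 2, 7049, 7117, 6514 and 7110.1 in clones 3, 9, 10 and 11, and 6575 in the original cells. Clone 2 lay well above a narrow group, by 0.62 on the log2 scale (SE 0.113, limma adjusted p = 0.0322). The call was lost without clone 3 (adjusted p = 0.0597), clone 10 (0.0538), clone 11 (0.0544) or the original cells (0.0784), with no filter (0.0771) and in eBayes without trend (0.109), and it lay between 0.0242 and 0.109 over all settings.

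In the other 8 lists no gene passed the test in clone 2. Of 5 further ERBB ligands only the neuregulin gene Nrg1 passed the filter, with 91.2 in clone 2 against 89.3 ± 20.3 (SD, n = 5; adjusted p = 0.958). Among 8 genes of ligand shedding and export the median difference was 0.05, with the sheddases Adam10 at 3511 against 3716 ± 277 (adjusted p = 0.797) and Adam9 at 3144 against 3233 ± 188 (adjusted p = 0.905). The adaptors and effectors next to the receptor (13 genes, median -0.10) included the phosphatase Ptpn11 at 5395 against 4316 ± 329 (adjusted p = 0.229) and the adaptor Crk at 3091 against 3899 ± 213 (adjusted p = 0.196). In the RAS to ERK cascade (9 genes, median -0.06) the small GTPase Nras had 2483 against 3089 ± 155 (adjusted p = 0.229) and the ERK-activated kinase Rps6ka3 had 4369 against 2749 ± 525 (adjusted p = 0.139). Rps6ka3 passed the test only when clone 9 was left out (log2 difference 0.78, adjusted p = 0.0319).

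The PI3K to AKT cascade had 10 genes and a median of 0.08, with the kinases Akt1 at 4571 against 3855 ± 197 (adjusted p = 0.314) and Pdpk1 at 2008 against 2838 ± 256 (SD, n = 5; adjusted p = 0.125). The 18 genes of negative feedback had the highest median, 0.22, and among them were the receptor inhibitor Errfi1 at 2748 against 2357 ± 168 (adjusted p = 0.430) and the phosphatase Ptpn1 at 2633 against 2259 ± 145 (adjusted p = 0.420). For the 14 genes of receptor endocytosis and sorting the median was 0.00, with Rab7 at 6452 against 5782 ± 271 and Rab5a at 4022 against 4567 ± 256 (adjusted p = 0.484 and 0.463). For the 19 genes known to be induced by EGF receptor signals it was -0.03, with the immediate early factor Egr1 at 8935 against 11950.3 ± 1892 (adjusted p = 0.274) and the survival protein Mcl1 at 5666 against 6677 ± 621 (adjusted p = 0.409).

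**Figure D4:**
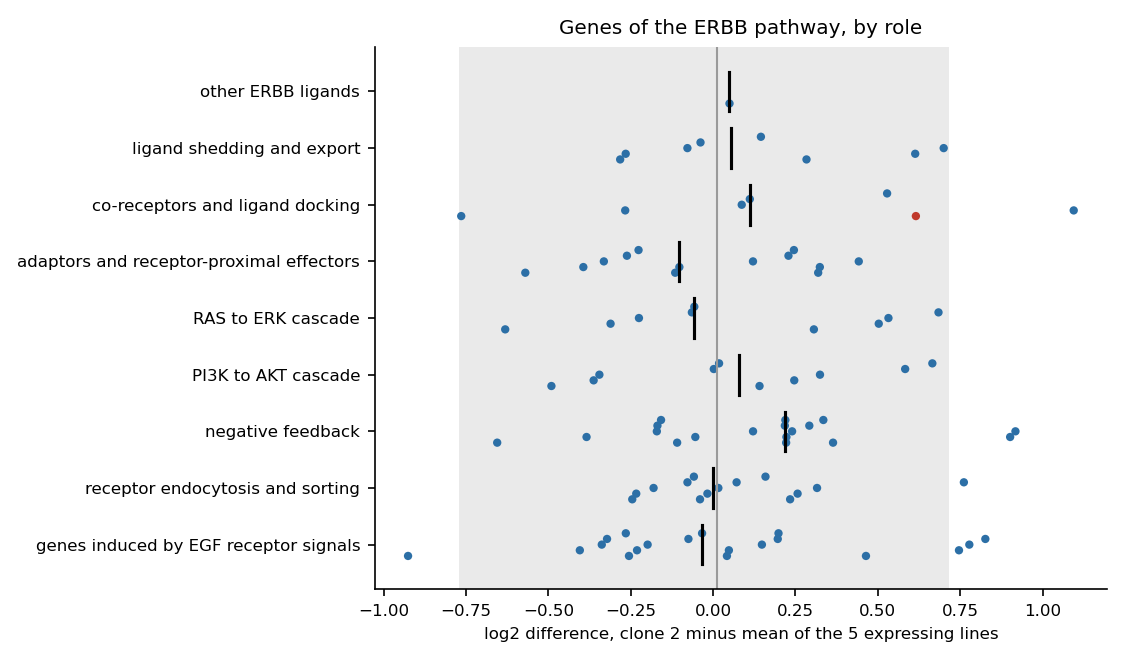
Each point is a gene past the signal filter, placed at its log2 difference of clone 2 from the mean of the 5 expressing lines and grouped by its role in ERBB signalling; black ticks are list medians, red marks a limma adjusted p under 0.05, the grey line is the median of all 10342 genes and the grey band their 5th to 95th percentile (-0.77 to 0.72). Cd9 is the only red point.

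Against Aqp2, 4 of the 99 pathway genes passed the test by limma (4.04% against 2.22% of all genes), and all 4 fell as Aqp2 rose. The count was not tested against that share, so it is not read as a trait of the pathway. Of all genes called on the slope, 126 rose and 104 fell with Aqp2. The 4 pathway genes were named after their values were seen. Dusp4, a nuclear phosphatase of MAP kinases that ERK signalling is known to induce, had 1801 in clone 2, then 1245.0 and 1173 in clones 10 and 3, 1005 in the original cells, and 760.4 and 712 in clones 9 and 11, which is the reverse of the order of Aqp2. Its slope was -0.24 log2 units per log2 unit of Aqp2 (SE 0.0392, limma adjusted p = 0.0279). Dusp6, a cytoplasmic phosphatase of ERK and likewise an ERK-induced feedback gene, had 3046 in clone 2, then 1914 and 2186 in clones 10 and 3, 1663 in the original cells, and 1240.1 and 1228 in clones 9 and 11. Only clones 3 and 10 were out of that reverse order, and the slope was -0.24 (SE 0.0416, limma adjusted p = 0.0311). Dusp4 and Dusp6 were the only 2 of the 18 negative feedback genes called on the slope. Other genes of the feedback and EGF-induced lists had slopes of either sign, and these did not pass. Slopes were 0.08 for Spry1, 0.04 for Spry2, 0.17 for Dusp1 and 0.12 for Egr1. For Dusp5 the slope was -0.01, and for Etv4 and Etv5 it was -0.22.

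The other 2 were Plaur, the urokinase receptor (slope -0.20, adjusted p = 0.0477), and Pik3r3, a regulatory subunit of PI3K (slope -0.18, adjusted p = 0.0473). Both were highest in clone 2, at 1695 and 1049.8, and lowest in clone 11, at 687 and 556. In the comparison of clone 2 alone none of the 4 passed, with log2 differences of 0.90 for Dusp4, 0.92 for Dusp6, 0.83 for Plaur and 0.67 for Pik3r3 and adjusted p-values of 0.107 to 0.168. All 4 slopes stayed negative in the 5 expressing lines alone, at -0.31 for Dusp4, -0.30 for Dusp6, -0.19 for Plaur and -0.22 for Pik3r3, but none passed there (adjusted p from 0.242 to 0.424). All 4 calls were also lost without clone 11 or the original cells, with no filter and without the mean-variance trend. Those of Plaur and Pik3r3 were lost as well without clone 3 or clone 9 and with quantile normalization.

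**Figure D5:**
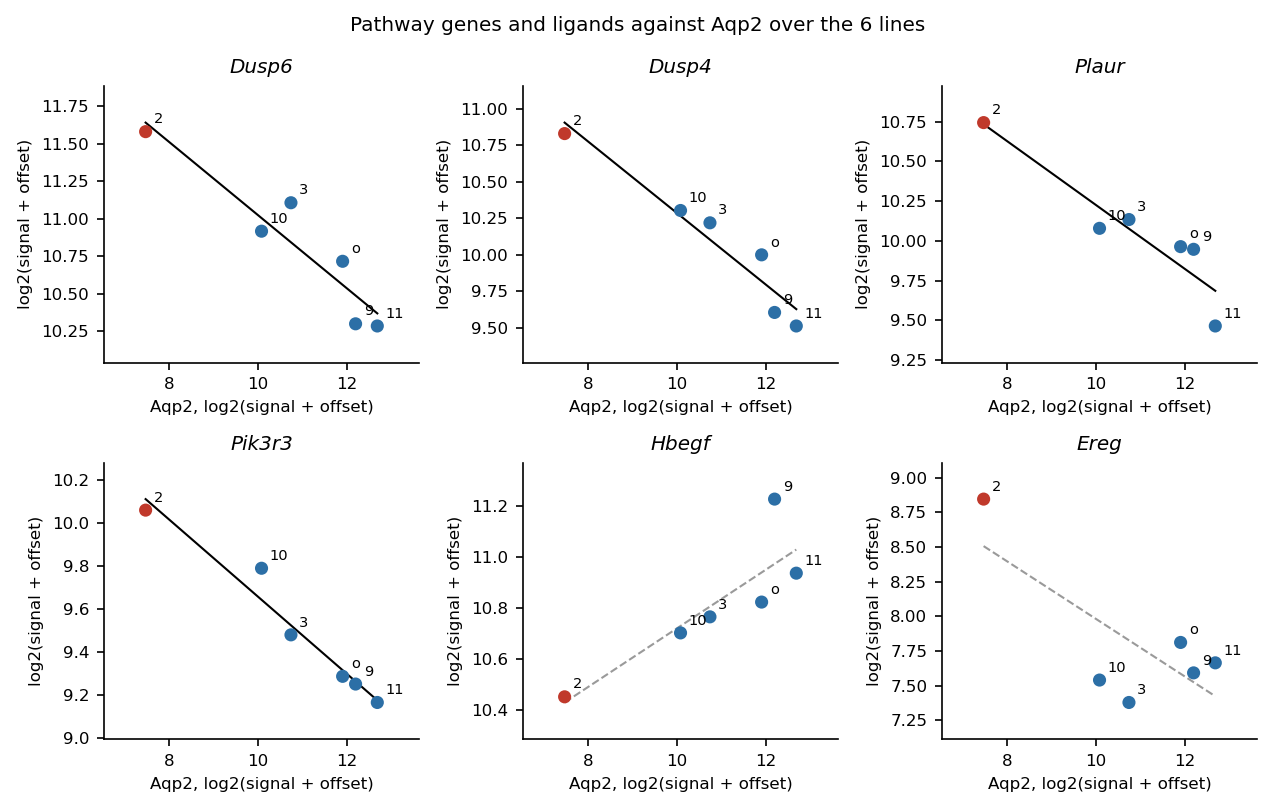
Log2(signal + offset) of 4 pathway genes and 2 ligands against that of Aqp2 in the 6 lines (numbers are clones, o the original cells, red is clone 2), with the fitted slope as a solid line where the limma adjusted p was under 0.05 and dashed where it was not. Dusp4 falls from 1801 signal units in clone 2 to 712 in clone 11, whereas Ereg is high only in clone 2.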

How the data were processed

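The authors deposited 1 MAS5 intensity per probe set and array, not log-transformed. The submitters' processing notes name Affymetrix Expression Console 1.1 and MAS5. The trimmed mean of every array (without the lowest and highest 2%) was 500.0 as found from the values; the scaling target is not given in the sources used here. The 64 control probe sets were left out. Of 45037 probe sets, 34945 had 1 gene in the platform annotation, 932 several and 9160 none named, and symbols were updated to the GRCm38.p6 gene table.

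Signals were analysed as log2(signal + 18.85), where 18.85 is the lower quartile (25th percentile) over the 6 arrays, which understates differences of low signals. Probe sets with a mean signal above the median, 85.5, were kept (22518). limma 3.58.1 in R 4.3.3 was fitted across all of them (lmFit, eBayes with a mean-variance trend, 4 residual degrees of freedom, two-sided, Benjamini-Hochberg, adjusted p under 0.05 as the threshold), for clone 2 against the 5 expressing lines and for the slope on the Aqp2 probe set. Clone 2, with 1 array, was assumed to vary like the others. The fits were also run on simulated data in which every line had the same spread, so that assumption was not tested there. The number of arrays limits the precision.

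Named genes were all members, up to 4 called genes of each list by size of difference in clone 2 or, in lists without a call, the 2 brightest, and the 3 genes most like the member of widest range. Members and lists were chosen with earlier results of these data known. Alternatives were offsets of 0 and doubled, quantile normalization and median centring, no filter and a stricter filter (75th percentile), robust eBayes and eBayes with no trend, the mean over a gene's probe sets, and leaving out each line.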

Additional observations from a re-analysis of the deposited data

Results flagged for a closer look

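Among the 5 expressing lines, the Erbb4 signal of clone 3 (59.3) lay far from the other 4 (2.64 to 4.12), its gap to the nearest of them being 0.974 of the whole range, where the critical value for 5 samples is 0.71. It was the only one of 20 probe sets of the family to do so, and chance gives about 1 in 20 such groups.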

How the results depend on the processing

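No member's difference in clone 2 changed sign in any of 96 values over the alternatives, and 5 of them, all for Ereg, no longer passed the test. The count of members past the test fell from 1 to 0 with no filter and with the filter at the 75th percentile, which left Ereg untested, and lay between 0 and 1 when an expressing line was left out. The pathway count of 1 became 0 with no filter and without the trend, and lay between 0 and 2 with a line left out. Over all probe sets the count went from 560 to 210 with no filter and 219 without the trend, and to between 154 (without the original cells) and 943 (without clone 9). No member passed the slope test under any alternative. The pathway count on the slope, 4, became 0 with no filter, without the trend and without clone 2, and 2 with quantile normalization, and lay between 0 and 5 with a line left out.

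Signs changed only in values that did not pass the test. With median centring the differences of Adam10 and Adam9 became 0.0138 and 0.0535. With an expressing line left out, the difference of Nrg1 lay between -0.0839 and 0.107. The slope of Erbb2 then lay between -0.0569 and 0.00833, and that of Erbb3 between -0.00814 and 0.00344. Without clone 2 the slope of Erbb3 was -0.0977, with its sign kept. The slopes that changed sign there were -0.0109 for Egfr, 0.0883 for Ereg and -0.33 for Btc. The cause of these changes was not tested. Signals near or below the array median, as for Egf and Erbb4, are where depth of signal limits what can be said.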
